A study of Mus musculus with 12 samples.

Results

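Basement membrane transcripts of the vein wall are described here as a set of 10 genes, chosen by symbol from what their proteins are and matched to Ensembl identifiers: Col4a1, Col4a2 and Col4a5 (collagen IV chains), Lama4, Lama5, Lamb1 and Lamc1 (laminin chains), Nid1 and Nid2 (nidogens) and Hspg2 (perlecan). They are 10 of the 55414 genes in the table, and all 10 were found and passed the filter on low expression, which kept 15912 genes. RNA-seq was performed on the inferior vena cava (IVC) of 12 wild-type C57BL/6J mice aged 10 weeks, collected 7 days after surgery, with 1 library per mouse. In the AVF group (3 female and 3 male mice) an infrarenal fistula between aorta and IVC was made by needle puncture, so that arterial blood entered the vein. The sham group (3 female and 3 male mice) had the same operation, clamping included, without the puncture. The mice carried no transgene or deletion, and the libraries came from vessel tissue rather than sorted cells, in which a change in the number of cells of a type and a change in the RNA of each cell cannot be told apart.

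The basement membrane is the thin sheet of matrix under the endothelium and around each smooth muscle cell and pericyte. Laminins, each a trimer of an alpha, a beta and a gamma chain, polymerize on the cell surface through integrins and dystroglycan. Collagen IV, a trimer that assembles into its own network, gives the sheet its tensile strength, and nidogens and perlecan bind to both networks. In vessels, Col4a1 and Col4a2 form the collagen IV common to all basement membranes, Col4a5 pairs with less widespread chains, and Lama4 and Lama5 are the alpha chains of endothelial laminins, with Lamb1 and Lamc1 as frequent partners.

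Libraries held 15177881 to 22717423 counts, and none of the 10 genes was near the limit of detection. Expression is given as normalized CPM, in which every library is brought to the same total after scaling factors (TMM) are applied. Some libraries stood apart in other genes. AVF male 2 and AVF female 2, which the study had set apart, had summed hepatocyte markers of 2573 and 7202 normalized CPM, while the other 10 libraries had no more than 5.71. In AVF female 1, 46.0% of the counts fell on ribosomal RNA genes, against at most 12.6% in any other library, and muscle fibre markers summed to 738 and 602 normalized CPM in Sham female 1 and Sham female 3 and to no more than 26.5 elsewhere.

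At an adjusted p under 0.05 in the quasi-likelihood test of edgeR (the test meant by edgeR from here on), 6 of the 10 genes were higher in the AVF group and 0 were lower. Among all tested genes, 8.63% were higher and 5.13% lower at that threshold. The 6 genes were Col4a1, Col4a2, Col4a5, Lamc1, Nid1 and Hspg2. The same 6 were called without AVF male 2 and AVF female 2, with ribosomal RNA genes left out and, in each of 12 fits, without any 1 library, and Lama5 was called besides when Sham female 1 was left out. 3 of the 10, the collagen IV chains, were also changed at least 2-fold (DEG), against 3.37% of all genes for DEG higher in AVF. The median log2 fold change of the 10 genes was 0.56, and that of all tested genes was -0.01. In 4 of the 10, every AVF library was above every sham library, which was so for 4.55% of all genes.

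**Figure D1:**
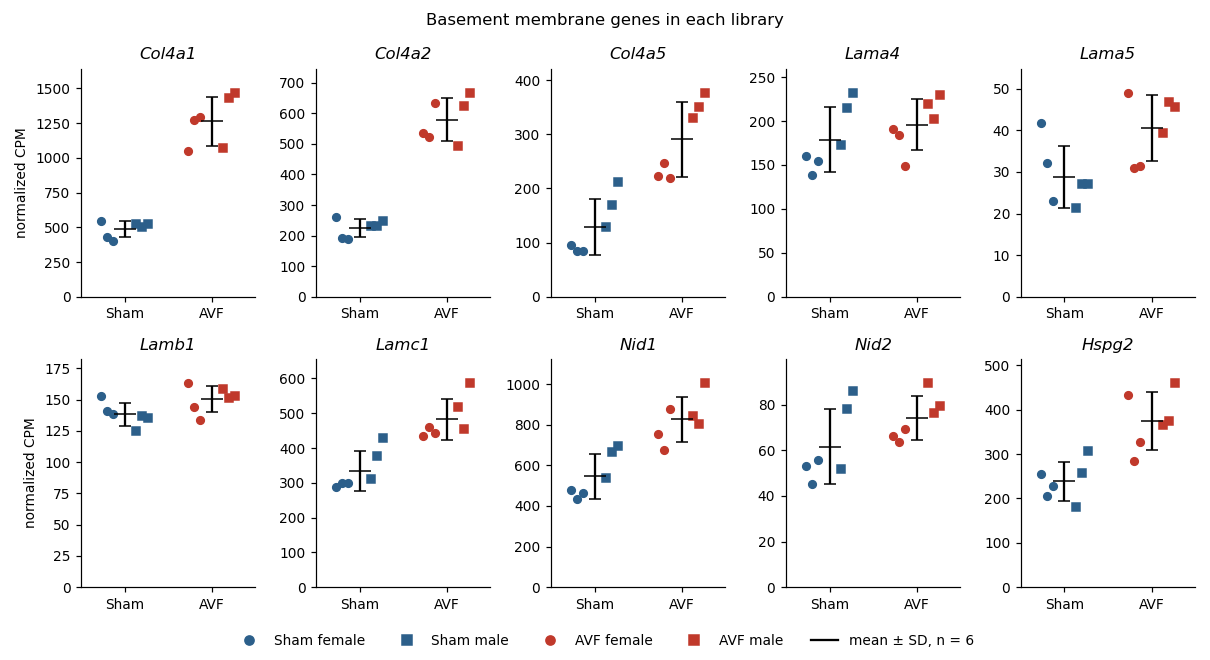
Normalized CPM of each of the 10 genes (vertical axes from 0, each gene on its own scale) in the 6 sham and 6 AVF libraries, with circles for females, squares for males and bars for the mean ± SD (n = 6). The sham and AVF points are separate for Col4a1, Col4a2, Col4a5 and Lamc1, and they overlap for the other 6 genes.

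The 3 collagen IV chains rose, with the largest log2 fold changes of the 10 genes. Col4a1 (ENSMUSG00000031502, GRCm39 chromosome 8, 11248423 to 11362826, minus strand) had 398, 513 and 542 normalized CPM as lowest, median and highest sham value and 1045, 1280 and 1466 in AVF. The lowest AVF library thus lay well above the highest sham library. The mean was 1262 ± 176 (SD, n = 6) in AVF and 487 ± 58.3 (SD, n = 6) in sham, a 2.59-fold difference of the means and a log2 fold change of 1.37 (SE 0.12, adjusted p = 6.45e-05, edgeR). Col4a2 (ENSMUSG00000031503, chromosome 8, 11362471 to 11499287, plus strand), whose chain joins with that of Col4a1 in the same trimer, ranged from 190 to 260 normalized CPM around a median of 232 in sham and from 493 to 666 around 580 in AVF. Here too the groups did not overlap, and the log2 fold change was 1.36 (SE 0.11, adjusted p = 5.53e-05, edgeR).

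The proportion of this pair did not differ between the groups beyond the spread of the libraries. Per kilobase of the canonical transcript, a library held 2.22 ± 0.18 (SD, n = 6) times as much Col4a1 as Col4a2 in AVF and 2.20 ± 0.08 (SD, n = 6) times as much in sham. The ratio ranged from 1.99 to 2.47 in AVF and from 2.12 to 2.30 in sham, so the sham values lay inside the AVF range. The log2 ratio differed by 0.01 between the groups (exact permutation test, two-sided, p = 0.872, n = 6 and 6, 0.872 after the Benjamini-Hochberg adjustment over 6 ratios). After the mean of each group was subtracted, log2 CPM of the pair still correlated with an r of 0.89 over the 12 libraries, given as a description of libraries that share their normalization.

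This pair lies head to head on chromosome 8, with transcripts that run in opposite directions from overlapping starts. The windows of 250 bases before to 50 after the start of each gene in RefSeq (GRCm38.p6, an older build than that of the counts) are printed 5′ to 3′ on the strand of the gene, because they show how closely both starts lie together, and 78 bases that both windows share are in capitals. The window of Col4a1 is chr8:11312777-11313076 on the minus strand and that of Col4a2 is chr8:11312555-11312854 on the plus strand. The shared bases are chr8:11312777-11312854, and the start sites are 21 bases apart.
Col4a1: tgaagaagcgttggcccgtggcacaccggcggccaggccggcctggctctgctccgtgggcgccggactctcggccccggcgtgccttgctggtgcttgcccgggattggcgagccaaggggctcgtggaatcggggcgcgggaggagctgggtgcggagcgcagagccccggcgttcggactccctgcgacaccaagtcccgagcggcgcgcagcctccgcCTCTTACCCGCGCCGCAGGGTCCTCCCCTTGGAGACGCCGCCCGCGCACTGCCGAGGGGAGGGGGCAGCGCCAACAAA
Col4a2: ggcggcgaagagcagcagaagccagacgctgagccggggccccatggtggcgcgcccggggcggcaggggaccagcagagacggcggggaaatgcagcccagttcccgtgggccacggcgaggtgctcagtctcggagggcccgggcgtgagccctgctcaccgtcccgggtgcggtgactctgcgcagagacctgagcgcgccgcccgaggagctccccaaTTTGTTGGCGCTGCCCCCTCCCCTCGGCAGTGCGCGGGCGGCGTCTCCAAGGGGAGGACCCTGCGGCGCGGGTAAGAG
Each window ends in the capitals, which therefore hold both start sites and the first 50 bases of either transcript, read in opposite directions. In GRCm39 the gene models overlap at their starts as well, and the code of the study counted reads by strand.

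Col4a5 (ENSMUSG00000031274, chromosome X, 140258354 to 140472231, plus strand) had 84.4, 112 and 212 normalized CPM as lowest, median and highest sham value and 220, 289 and 376 in AVF. The groups came close without overlapping, since Sham male 3 had 212 and AVF female 3 had 220. The mean was 291 ± 69.0 (SD, n = 6) in AVF and 129 ± 52.1 (SD, n = 6) in sham, a log2 fold change of 1.17 (SE 0.25, adjusted p = 0.011, edgeR). The window of Col4a5, printed as that of the remaining DEG and with GGGCGG in capitals, is chrX:141475169-141475468 on the plus strand.
Col4a5: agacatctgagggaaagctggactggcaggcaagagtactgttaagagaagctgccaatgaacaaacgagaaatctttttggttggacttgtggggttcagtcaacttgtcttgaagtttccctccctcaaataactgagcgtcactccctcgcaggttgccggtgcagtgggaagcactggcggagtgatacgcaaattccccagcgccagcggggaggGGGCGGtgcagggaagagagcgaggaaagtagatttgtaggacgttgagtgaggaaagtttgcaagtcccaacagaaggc
Windows were found for 7 of the 10 genes, and not for Lama4, Lamc1 and Nid2. GGGCGG, read on both strands (CCGCCC on the other), occurred in the windows of all 7, from 1 time in Col4a1, Col4a5 and Nid1 to 5 times in Hspg2, and in 35.7% of all 32851 windows. The match of Col4a1 lies in the bases shared with Col4a2 and is counted for both genes. CCAAT, whose reverse complement was searched as well, occurred in 5 of the 7, all but Lama5 and Hspg2, and in 37.4% of all windows. TATAAA and TGACTCA, with their reverse complements, occurred in 0 of the 7, and in 13.6% and 5.20% of all windows. None of the 4 motifs contains another, and a match describes letters and not a bound site.

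Of the laminin chains, the gamma chain rose and the alpha and beta chains did not pass the test. Lamc1 (ENSMUSG00000026478, chromosome 1, 153094597 to 153208774, minus strand), the gamma chain of most laminins, ranged from 288 to 428 normalized CPM in sham (median 305) and from 435 to 586 in AVF (median 457). The highest sham library, Sham male 3, was just under the lowest AVF library, AVF female 1. The log2 fold change was 0.53 (SE 0.12, adjusted p = 0.014, edgeR). Lamb1 (ENSMUSG00000002900), the beta chain, had 125, 138 and 153 normalized CPM as lowest, median and highest sham value and 133, 152 and 163 in AVF. These ranges lay almost on top of each other, with a log2 fold change of 0.12 (95% interval -0.03 to 0.27, adjusted p = 0.251, edgeR), so a rise as large as that of the collagen IV chains lies outside the interval.

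Lama4 (ENSMUSG00000019846), an alpha chain found in endothelium and muscle, ranged from 139 to 232 normalized CPM in sham and from 148 to 230 in AVF. Its groups covered the same range, and the log2 fold change was 0.13 (95% interval -0.17 to 0.44, adjusted p = 0.557, edgeR). Lama5 (ENSMUSG00000015647), the other endothelial alpha chain, had 21.3, 27.2 and 41.9 normalized CPM as lowest, median and highest sham value and 30.9, 42.6 and 49.0 in AVF. The groups overlapped, and the log2 fold change of 0.49 (SE 0.17) missed the threshold (adjusted p = 0.076, edgeR), while DESeq2 gave an adjusted p of 0.038.

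Of the nidogens, Nid1 passed the test and Nid2 did not. Nid1 (ENSMUSG00000005397, chromosome 13, 13612071 to 13686860, plus strand), a linker of laminin and collagen IV, had 432, 510 and 694 normalized CPM as lowest, median and highest sham value and 678, 826 and 1004 in AVF. Only Sham male 3, at 694, was above the lowest AVF library, AVF female 2 at 678. The log2 fold change was 0.60 (SE 0.14, adjusted p = 0.017, edgeR). Nid2 (ENSMUSG00000021806), its paralog, ranged from 45.1 to 86.1 normalized CPM in sham (median 54.3) and from 63.7 to 89.3 in AVF (median 72.8). Sham male 2 and Sham male 3 lay among the AVF values, and the log2 fold change of 0.27 (95% interval -0.08 to 0.61, adjusted p = 0.271, edgeR) did not pass.

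Hspg2 (ENSMUSG00000028763, chromosome 4, 137196079 to 137298231, plus strand), which encodes perlecan, the heparan sulfate proteoglycan of the sheet, had 181, 242 and 307 normalized CPM as lowest, median and highest sham value and 284, 370 and 460 in AVF. Sham male 3, at 307, was above AVF female 2, at 284, and no other pair of values crossed. The log2 fold change was 0.65 (SE 0.14, adjusted p = 0.014, edgeR).

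The calls of Lamc1, Nid1 and Hspg2 were kept with relative log expression scaling in place of TMM and lost with library totals alone. AVF female 1, with 46.0% of its counts on ribosomal RNA genes, had the lowest TMM factor of the 12 libraries, 0.611. The part of this library in the lost calls was not tested. With library totals alone, the median log2 fold change of all genes moved to -0.12 and the split of all calls moved from 1373 higher and 817 lower to 547 higher and 772 lower. With that scaling, Lamc1, Nid1 and Hspg2 kept log2 fold changes of 0.42, 0.50 and 0.52 and lost their calls (adjusted p = 0.19, 0.153 and 0.094, edgeR). Col4a1, Col4a2 and Col4a5 were called there too, at 1.29, 1.27 and 1.08, against 3.44% of all genes called higher, and no member changed sign, although Lamb1 lay at 0.00 and Lama4 at 0.01.

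Within a library, the ratio of 2 genes does not depend on its scaling, and 6 ratios were compared between the groups. Lamb1 per Lamc1 fell from 0.581 ± 0.108 (SD, n = 6) in sham to 0.431 ± 0.051 (SD, n = 6) in AVF, a difference of -0.42 in the log2 ratio (exact permutation test, two-sided, p = 0.0152, adjusted over the 6 ratios 0.0455). The ranges overlapped, since Sham male 3 had 0.433 and AVF female 1 had 0.513. Nid1 per Nid2 rose from 7.25 ± 0.71 (SD, n = 6) to 9.03 ± 1.02 (SD, n = 6), a difference of 0.31 in the log2 ratio (exact permutation test, two-sided, p = 0.00866, adjusted 0.0455). Its ranges overlapped as well, with a highest sham value of 8.40 in Sham male 1 and a lowest AVF value of 7.61 in AVF male 1. Both results were close to the threshold. Without AVF male 2 and AVF female 2 the adjusted p of each was 0.114 (exact permutation test), and with any 1 of the 12 libraries left out it rose to between 0.0519 and 0.0909 for Lamb1 per Lamc1, and likewise for Nid1 per Nid2 except without AVF male 1, where the call was kept.

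None of the other 3 ratios passed the test. Col4a5 per Col4a1 was 0.233 ± 0.050 (SD, n = 6) in AVF and 0.264 ± 0.090 (SD, n = 6) in sham (exact permutation test, two-sided, p = 0.539, adjusted 0.647). Lama4 per Lama5 was 9.31 ± 1.44 (SD, n = 6) in AVF and 12.4 ± 3.84 (SD, n = 6) in sham (p = 0.134, adjusted 0.268, exact permutation test). Lamb1 per Lamb2, the other beta chain of vascular laminins, was 0.978 ± 0.190 (SD, n = 6) and 1.13 ± 0.327 (SD, n = 6), with p = 0.435 and 0.647 after adjustment (exact permutation test). Col4a1 per Lamc1, a ratio of collagen IV to laminin added after the values of both genes were seen and so given with no test, was 3.16 ± 0.47 (SD, n = 6) in AVF and 1.78 ± 0.30 (SD, n = 6) in sham. Its lowest AVF value, 2.48 in AVF male 1, was above its highest sham value, 2.26 in Sham female 1.

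**Figure D2:**
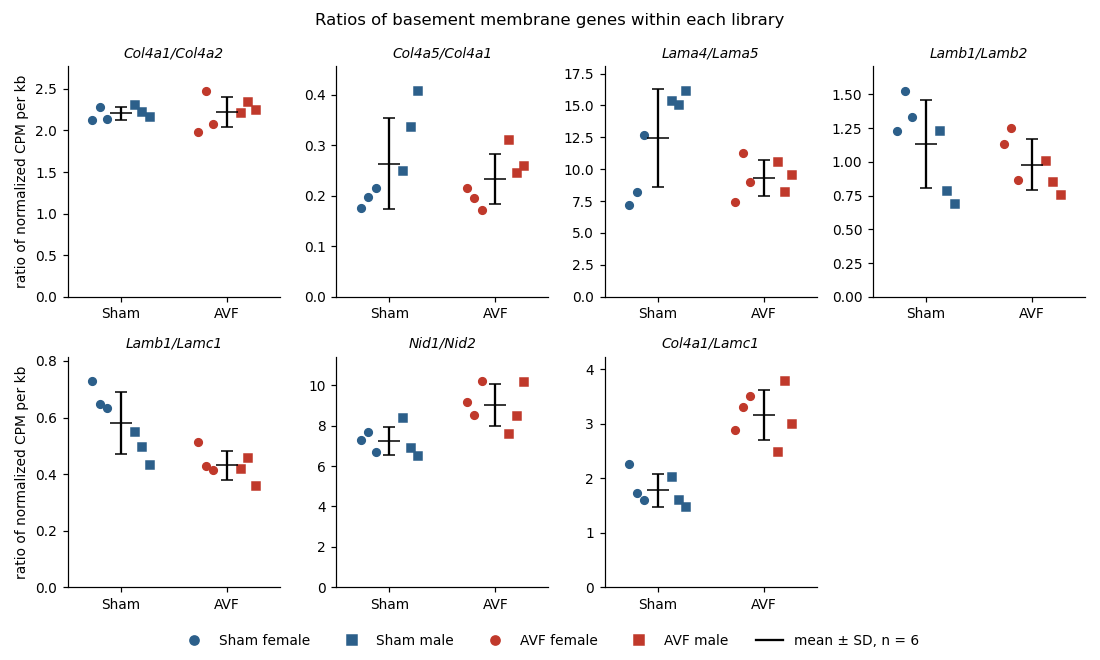
Ratio of normalized CPM per kilobase of the canonical transcript between 2 genes in each library (vertical axes from 0), with circles for females, squares for males and bars for the mean ± SD (n = 6). Col4a1 per Col4a2 sits near 2.2 in both groups, Lamb1 per Lamc1 is lower and Nid1 per Nid2 higher in AVF, and Col4a1 per Lamc1 is separate between the groups.

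Levels of different genes can be compared only per length. Per kilobase of the canonical transcript, Nid1 was the most abundant of the 10 in sham, at 89.7 ± 18.1 normalized CPM per kb (SD, n = 6), ahead of Col4a1 at 73.6 ± 8.81 (SD, n = 6), and the ranges of this pair overlapped. In AVF, Col4a1 came first, at 191 ± 26.6 (SD, n = 6), ahead of Nid1 at 136 ± 18.4 (SD, n = 6), and here too the ranges overlapped, with a lowest Col4a1 value of 158 and a highest Nid1 value of 165. Lamc1 went from 42.1 to 60.8 and Col4a2 from 33.4 to 85.9 normalized CPM per kb, so that Col4a2 passed Lamc1 in AVF, where the lowest Col4a2 value was 73.1 and the highest Lamc1 value 73.8. Lama5 was the least abundant, at 2.52 in sham and 3.54 in AVF, and the remaining genes lay between 12.6 and 29.6 in sham and between 15.1 and 44.3 in AVF. These levels depend on the transcript taken: by the length of all exons of a gene, Lama4 would have 11.4 in place of 29.6 in sham, and Col4a2 would be above Lamc1 in sham already (31.4 and 29.5) as well as in AVF (80.7 and 42.6).

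The difference between AVF and sham was also examined in each sex, from a fit of the 4 groups of operation and sex over 22163 genes. In females, Col4a1, Col4a2, Col4a5 and Nid1 were higher in AVF, 4 of the 10 genes, where 2.21% of all genes were called in either direction. In males, Col4a1, Col4a2 and Col4a5 were called, 3 of the 10, against 0.541% of all genes. The log2 fold changes of Col4a1 were 1.37 in females (adjusted p = 0.0044) and 1.36 in males (adjusted p = 0.012), and those of Col4a2 were 1.37 (adjusted p = 0.0036) and 1.33 (adjusted p = 0.009, edgeR). The male calls rested on few mice, for these genes as for all. Without AVF male 3 or without Sham male 2, none of the 10 genes was called in males. Over all genes, 4 were called higher and 2 lower without AVF male 3, of 21866. Without Sham male 2 these were 3 and 2 of 21907, and with all libraries 94 and 26. DESeq2 called 7 of the 10 on all libraries, against 3.84% of all genes. Of the male calls in edgeR, Col4a5 was also lost without AVF male 1 or AVF male 2, and Col4a1 without Sham male 3. These fits called 30, 15 and 15 of all genes higher. The female call of Nid1 was lost without AVF male 2, AVF female 3, Sham male 2, Sham male 3 or any 1 of the sham females. Lamc1, which was not called in females there, was called by DESeq2, with relative log expression scaling, when genes above 1 CPM in 2 or more libraries were kept, and without Sham male 1.

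No difference between the sexes in the change from sham to AVF passed the test. The interaction of operation and sex was called for 0 of the 10 genes and for 0% of all 22163 genes in edgeR, with 1069 genes at an unadjusted p under 0.05, and DESeq2 called 3 genes, none of them a member. The widest difference was that of Lama5. It had 21.3, 27.2 and 27.2 normalized CPM in sham males and 39.4, 46.8 and 45.7 in AVF males, with no overlap, and 41.9, 32.1 and 23.1 in sham females against 49.0, 30.9 and 31.4 in AVF females, which overlapped. Its interaction was -0.66 on the log2 scale (female minus male, SE 0.31, unadjusted p = 0.055, adjusted p = 0.96, edgeR). For Col4a1 and Col4a2 the interaction was 0.01 and 0.03, with 95% intervals of -0.52 to 0.54 and -0.46 to 0.53.

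**Figure D3:**
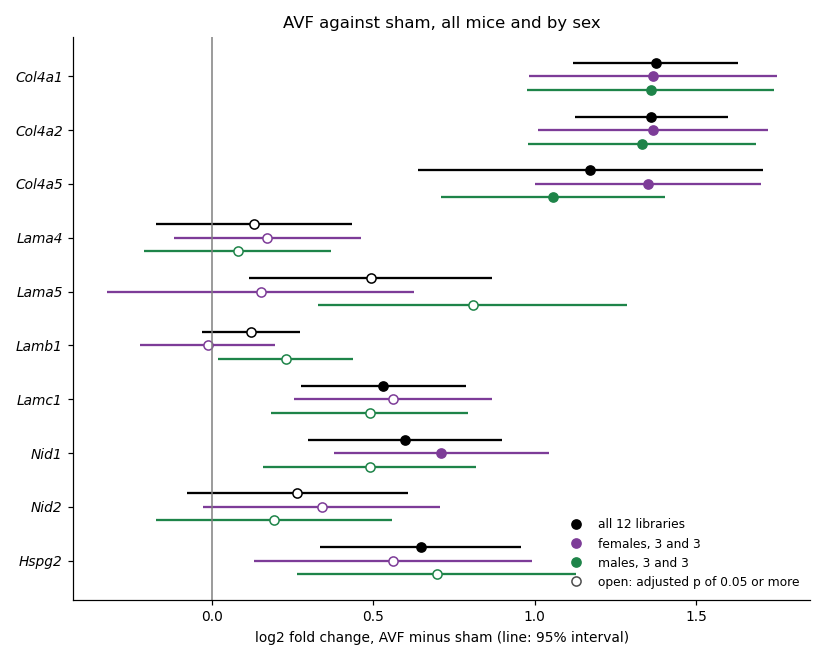
Log2 fold change of AVF minus sham (horizontal axis) of the 10 genes with its 95% interval, from all 12 libraries (black) and, from the fit of the 4 groups, in females (purple) and males (green), which share no libraries with each other but all of them with the black points. Filled points have an adjusted p under 0.05: the collagen IV chains are filled in all 3, Nid1 in all mice and females, and Lamc1 and Hspg2 in all mice only, although Lamc1 was called in females under some alternatives.

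Col4a5 was the member in which the sexes stood furthest apart. It had 129, 169 and 212 normalized CPM in the 3 sham males and 95.1, 84.4 and 85.1 in the 3 sham females, and 331, 349 and 376 in the AVF males against 223, 247 and 220 in the AVF females. Within each operation every male was above every female. Lama4 was separate in the same way, with 173 to 232 normalized CPM in sham males and 139 to 160 in sham females. In AVF it had 203 to 230 in males and 148 to 191 in females. The share of all genes with such a separation was not counted. The difference of females minus males was -0.93 on the log2 scale in sham (95% interval -1.27 to -0.58, unadjusted p = 9.02e-05, adjusted p = 0.122) and -0.63 in AVF (95% interval -0.97 to -0.29, unadjusted p = 0.0018, adjusted p = 0.724), neither past the threshold in edgeR. DESeq2 called it in sham, where it called 0.722% of all genes, as did edgeR without Sham male 1. By edgeR, 0 of the 10 genes were called between females and males in sham (0.0451% of all genes) and 0 in AVF (0.0226%). All members but Lama5 and Lamb1 had lower female than male estimates in both operations, and for Lama4, Lamc1, Nid1 and Nid2 these were -0.47 to -0.22 on the log2 scale.

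The members fell into different patterns when only the variation within the groups was kept. After the mean of the AVF or sham group was subtracted from log2 CPM, the values of Col4a5, Lama4, Lamc1, Nid1 and Nid2 correlated among themselves with r from 0.75 to 0.92 over the 12 libraries. Lama5 and Lamb1 correlated with each other (r = 0.85) and hardly with those 5 genes (r from -0.22 to 0.18). Hspg2 lay between, with r from 0.50 to 0.63 to the 5 genes and 0.60 and 0.55 to Lama5 and Lamb1. The 12 libraries share their depth, scaling and sexes with all these genes, so the r values are a description. Of all genes outside the set, the one with the highest r to the mean standardized log2 CPM of the 10 members over the 12 libraries was Pdgfrb, a receptor of pericytes and other mural cells (r = 0.97), followed by Atad2 (0.97), Ccn4 (0.96), Adamts10 (0.96) and Heyl (0.95). After the group means were subtracted, the highest were Dlg1 (0.96), Angptl7 (0.95), Gucy1a1 (0.95), the laminin chain Lamb2 (0.95) and Sspn (0.93).

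**Figure D4:**
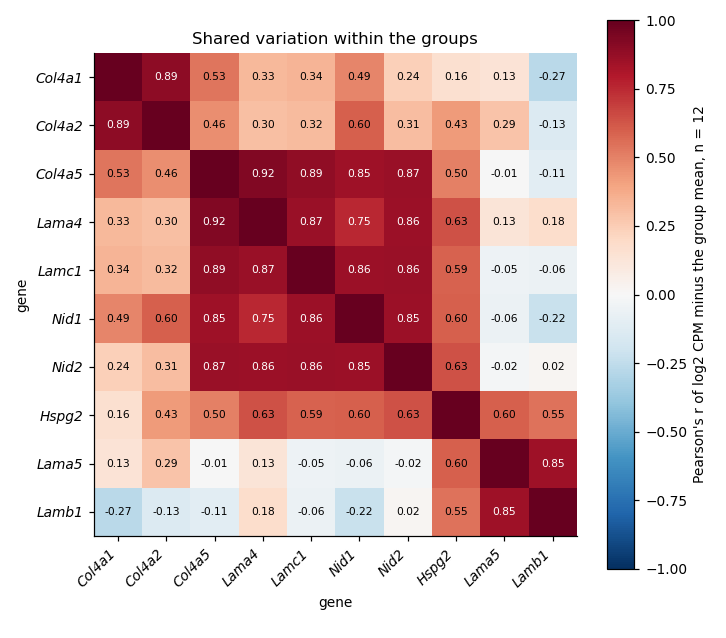
Pearson's r between each pair of the 10 genes (both axes) over 12 libraries, from log2 CPM minus the mean of the AVF or sham group, on a colour scale from -1 to 1. Col4a1 pairs with Col4a2 (0.89), Col4a5, Lama4, Lamc1, Nid1 and Nid2 form a block of 0.75 to 0.92, and Lama5 pairs with Lamb1 (0.85).

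The other genes of the basement membrane were counted by 6 lists. Of the other collagen IV chains, 0 of 3 passed the test. Col4a6, which lies next to Col4a5 on chromosome X, came closest, with 65.3 ± 18.2 (SD, n = 6) normalized CPM in AVF and 39.4 ± 15.2 (SD, n = 6) in sham, a log2 fold change of 0.73 (edgeR, adjusted p = 0.067), while Col4a3 and Col4a4 had 0.14 and 0.52. Col4a6 passed in DESeq2, in the exact test of edgeR, with sex as a covariate and without AVF female 1 or Sham male 3. Of the 7 other laminin chains, 6 were tested, 0 rose and 1 fell. That 1 was Lamc3, a gamma chain at low levels here, with 3.04 ± 1.09 (SD, n = 6) normalized CPM in AVF and 8.81 ± 4.70 (SD, n = 6) in sham, a log2 fold change of -1.53 (edgeR, adjusted p = 0.015). Its call was lost without AVF male 2 and AVF female 2 (-1.40, adjusted p = 0.0567, edgeR). Lama2, Lamb3 and Lamb2 had 0.52, -0.45 and 0.26 and were not called, although Lama2 passed without Sham male 3.

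Of 17 further components of the sheet, 5 rose and 0 fell, with a median log2 fold change of 0.31. Sparc, a collagen-binding protein that acts as an extracellular chaperone of collagen IV, had 7997 ± 1317 (SD, n = 6) normalized CPM in AVF and 3960 ± 982 (SD, n = 6) in sham, a log2 fold change of 1.01 (edgeR, adjusted p = 0.0039). Ntn4, a netrin that binds laminin, Col18a1, the precursor of endostatin, and Col15a1, its relative in vascular basement membranes, rose by 0.93, 0.89 and 0.58 on the log2 scale, and Smoc1 was the other gene called. Of 10 receptors of laminin and collagen IV, 1 rose and 1 fell, with a median of 0.01. Itgb1, the beta chain of most of these integrins, rose by 0.53 on the log2 scale (adjusted p = 0.011, edgeR), and Bcam, a receptor of laminins with Lama5, fell by 0.40 on that scale (adjusted p = 0.028, edgeR), a call that was lost without AVF male 2, Sham female 1 or Sham female 3 (adjusted p up to 0.0551, edgeR), without AVF male 2 and AVF female 2 together, in the exact test and with library totals alone (adjusted p up to 0.0883). Over all alternatives the log2 fold change of Bcam was -0.52 to -0.31. Ddr1 and Itga3 had 0.40 and -0.23 and were not called, although Ddr1 passed in DESeq2 and without AVF male 1, AVF female 2 or Sham male 3.

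The enzymes and chaperones that make collagen IV were the list with the most calls, 12 of 17 higher and 0 lower, with a median of 0.60. In 11 of the 17, every AVF library was above every sham library, which was so for 4.55% of all genes. Loxl2, which cross-links collagen IV, had 330 ± 41.1 (SD, n = 6) normalized CPM in AVF and 114 ± 26.0 (SD, n = 6) in sham, a log2 fold change of 1.54 (edgeR, adjusted p = 0.00013). Pxdn, the peroxidase that forms sulfilimine bonds in collagen IV, rose by 0.66 (adjusted p = 0.0013), the collagen chaperone Serpinh1 by 0.73 (adjusted p = 0.0013) and the lysyl hydroxylase Plod3 by 0.52 (adjusted p = 0.0012, edgeR). Most of these proteins serve other collagens as well. Of 8 enzymes of turnover, 4 rose and 1 fell, with a median of 0.51. Mmp14, Mmp2, Bmp1 and Ctss, proteases that act on or around the matrix, rose by 1.33, 0.77, 0.83 and 1.09, and Mmp9, a gelatinase that also cleaves collagen IV, fell by 0.99 on the log2 scale (adjusted p = 0.023, edgeR). Over the 6 lists, 22 of 61 tested genes were higher and 3 lower, against 8.63% and 5.13% of all genes. With library totals alone the 22 became 7, while the genes called higher over all went from 1373 to 547. Without AVF male 2 and AVF female 2 the 3 became 0, while the genes called lower over all went from 817 of 15912 to 319 of 15531. Among the genes that lost their call with library totals alone, Col18a1, Col15a1, Itgb1 and Plod3 had log2 fold changes of 0.79, 0.44, 0.42 and 0.41 there, and Pxdn, Serpinh1, Mmp2 and Bmp1 had 0.56, 0.63, 0.66 and 0.74.

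**Figure D5:**
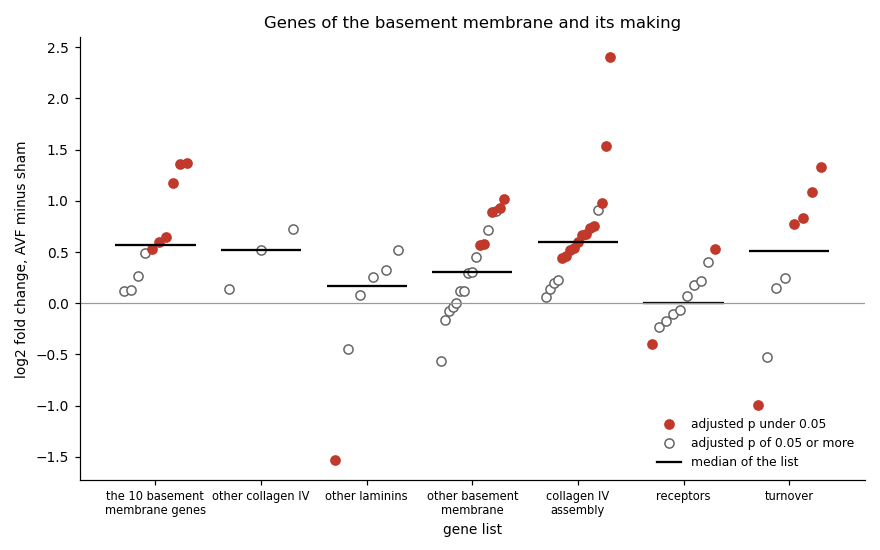
Log2 fold change of AVF minus sham (vertical axis) of each tested gene in the 10 basement membrane genes and 6 lists of related genes, filled where the adjusted p is under 0.05, with a line at the median of each list. The assembly list has 12 of 17 filled points, all above 0, and the receptor list has 1 above and 1 below.

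Markers of the cells of the vein were read beside these values, by the same test, in which 8.63% of all genes were called higher and 5.13% lower. Endothelial markers passed the test in 0 of 8 genes, with a median log2 fold change of -0.07 and summed levels of 1417 to 1653 normalized CPM in AVF and 1263 to 2133 in sham. Of 8 markers of smooth muscle cells and pericytes 2 rose, Rgs5 (1.39, adjusted p = 0.0056) and Pdgfrb (0.56, adjusted p = 0.021, edgeR). The other 6 had log2 fold changes from -0.28 (Myh11) to 0.35 (Tagln), with -0.06 for the pericyte gene Cspg4. The sums of the list were 3478 to 7458 in AVF and 3136 to 5651 in sham. Of 6 fibroblast markers 4 rose, Lum by 1.29 and Col1a1 by 1.34 among them. Dcn and Pdgfra had 0.12 and 0.04 and were not called. The sums of the list did not overlap, with 10224 to 15847 normalized CPM in AVF and 5482 to 10096 in sham. Col1a1, itself a matrix gene, had the highest means of the list, 8287 in AVF and 3284 in sham, and so weighed most in the sums. Of 5 macrophage markers 4 rose (947 to 1492 in AVF, 479 to 814 in sham), and 5 of 5 genes of dividing cells rose (158 to 312 in AVF, 39.8 to 74.8 in sham). Of 5 brown adipocyte markers 2 fell, with sums of 13.4 to 193 in AVF and 85.8 to 1425 in sham, and 7 of 7 hepatocyte markers were called higher, at high levels in AVF male 2 and AVF female 2 alone. White adipocyte, Schwann cell, muscle fibre and lymphocyte markers had no called gene among the 5, 6, 4 and 5 tested. No list had a marker at 0 in every library. The part of these cells in the values of the 10 genes was not tested.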

How the data were processed

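Reads were trimmed by the authors (PRINSEQ, Trimmomatic 0.39) and mapped by STAR 2.7.7a to GRCm39, and RSEM 1.3.3 gave expected counts per gene. These expected counts were deposited without normalization, for 55414 Ensembl identifiers and 12 libraries. RSEM shares reads between similar genes, and TMM assumes that most genes do not change. The scaling alternatives show how far the calls depend on the scaling, and that assumption itself was not tested.

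Values were rounded, genes above 1 CPM in 2 or more libraries were kept, and the quasi-likelihood test of edgeR 4.0.16 (R 4.3.3, limma 3.58.1) compared all 6 AVF with all 6 sham libraries, with Benjamini-Hochberg adjustment over all tested genes. The 4 groups of operation and sex used the filter of more than 12 counts over the libraries. DESeq2 1.42.0 served as an alternative. Ratios used the canonical transcript lengths of GENCODE, and promoters came from RefSeq.

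The 10 genes and all lists were chosen with earlier results of these data known, and no list is independent support. Named are the 10 genes, up to 4 genes of each list with the lowest adjusted p, Lamb2, the genes with the most similar profile (5 before and 5 after the group means were subtracted) and marker genes by their list. Smoc1, Mmp9, Lum, Col1a1, Dcn and Pdgfra were named after their values were seen. The results of some genes are left out of the text. Subgroups of AVF that the sample labels do not give were not compared.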

Additional observations from a re-analysis of the deposited data

How the results depend on the processing

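Over 22 alternatives for AVF against sham, no member changed sign, no member was called lower, and the 3 collagen IV chains stayed DEG in all 22. The number of members called higher stayed at 6 or 7 except for library totals alone, where it was 3, and the genes of the 6 lists called higher were 7 there. Without AVF male 2 and AVF female 2, 0 genes of the lists were called lower, where 319 of all 15531 genes were. The cause was not tested. Col4a3, never called, had -0.034 to 0.617 on the log2 scale with each library left out in turn. In females, 3 to 5 members were called with each library left out in turn and 4 or 5 under the other alternatives. In males, DESeq2 called 7 members and edgeR 0 to 3 with each library left out in turn. Where edgeR called 0, it called only 4 or 3 of all genes higher. Between females and males in sham, DESeq2 called 1 member and edgeR 0 to 1 in such fits.

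The log2 ratio of Col4a1 to Col4a2, AVF minus sham, was -0.0504 without AVF male 2 and AVF female 2 and -0.0230 to 0.0403 with each library left out in turn. That of Lamb1 to Lamc1 was -0.44 without those 2 and -0.50 to -0.35 with each left out, and that of Nid1 to Nid2 was 0.35 and 0.28 to 0.36.

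Mice of both groups share replicate numbers in the sample titles, while their mouse numbers differ. The correlation of the deviations was over 0.1 in 3 of 6 pairs of the same number and sex (mean 0.10). It was over 0.1 in 8 of 30 other pairs (mean -0.02). Since the other pairs include pairs of opposite sex, number and sex cannot be told apart in this check. The replicate numbers were not taken as a pairing. With the number as a block, 7 members were called higher, Lama5 among them, and 0 for the interaction. Col4a6 (0.76), Lama2 (0.58) and Ddr1 (0.41) of the lists passed as well. The differences of Lamb1 to Lamc1 (-0.42) and Nid1 to Nid2 (0.31) had an adjusted p of 0.188 (exact permutation test). Here 6 pairs allow no raw p below 0.0312, so a ratio alone at that floor cannot pass the adjustment over 6 ratios. Lamb1 to Lamc1 was lower in AVF in all 6 pairs, and Nid1 to Nid2 higher in 5. With operation permuted within each sex, each had an adjusted p of 0.03 (exact permutation test). Depth did not limit these genes, since 3 counts were at most 0.324 normalized CPM and no member was below 21.3.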
